A study of Mus musculus with 6 samples.

Results

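The genes described here encode 10 subunits of the Polycomb repressive complexes, and they were looked up by name among the 21853 protein-coding genes of GENCODE release M21 on the mouse build GRCm38. Ezh1, Ezh2, Eed, Suz12 and Jarid2 belong to Polycomb repressive complex 2 (PRC2), and Rnf2, Ring1, Pcgf6, Cbx2 and Cbx7 to complex 1 (PRC1). For each gene, the deposited intervals within 1 kb of any transcription start site (TSS) of a coding transcript, and those in the gene body plus 10 kb on each side, were read with their position and width. The intervals come from chromatin immunoprecipitation and sequencing (ChIP-seq) of untreated PGCLCs (primordial germ cell-like cells) of strain 129Sv/J, taken at day 2, in which the protein Tex10 carries an HA tag at its C-terminal end. PGCLCs are cultured cells that resemble the precursors of eggs and sperm. The series comprises 2 samples precipitated for the HA tag, 2 for H3K4me3, the trimethyl mark of active and poised promoters on lysine 4 of histone H3, and 2 of input DNA. One list of intervals was read per antibody, so no value below has a replicate error and no test was possible.

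Polycomb complexes keep developmental genes silent. PRC2 methylates lysine 27 of histone H3, through its catalytic subunits Ezh1 and Ezh2, and PRC1 attaches ubiquitin to histone H2A, through its RING subunits Ring1 and Rnf2. Both complexes are active in primordial germ cells, where PRC1 is known to restrain the onset of meiotic genes. Tex10 is a subunit of the rixosome, an RNA-processing complex needed for ribosome assembly that has also been reported to bind Polycomb complexes, and it has a role in pluripotency. The values below concern Tex10 at the genes that encode Polycomb subunits, not at the genes those complexes silence.

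All 10 genes had H3K4me3 within 1 kb of a TSS, where 60.9% of all coding genes did. HA-Tex10 was present within 1 kb of a TSS at 4 of the 10 genes, Ezh1, Eed, Jarid2 and Cbx7, where 8.66% of all coding genes and 13.9% of coding genes with H3K4me3 at a TSS had such an interval. The share of 40% has a 95% Wilson interval of 16.8 to 68.7%, which covers the counting of 10 genes only. The HA-Tex10 interval shared bases with an H3K4me3 interval at each of these 4 genes. Such overlap was usual, at 1752 of the 1893 coding genes with HA-Tex10 at a TSS (8.02% of all coding genes). The wider search in the gene body plus 10 kb added no gene, with HA-Tex10 again at 4 of 10 genes, where 16.9% of all coding genes had an interval, and H3K4me3 at 10 of 10, where 70.7% did. By complex, 3 of the 5 PRC2 genes (60%, 23.1 to 88.2%) and 1 of the 5 PRC1 genes (20%, 3.62 to 62.4%) had HA-Tex10 at a TSS, and the difference between the complexes was not tested. The 10 regions held 8 HA-Tex10 intervals, from 122 to 410 bp wide with a median of 275.5 bp, and 28 H3K4me3 intervals. All 8 HA-Tex10 intervals overlapped H3K4me3, where 69.04% of the whole HA-Tex10 list did. This is not a like comparison. The whole list is not limited to gene regions, whereas the 8 come from regions that all held H3K4me3. Of the 8, 5 lay within 1 kb of a TSS, and 4 belong to Cbx7.

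**Figure D1:**
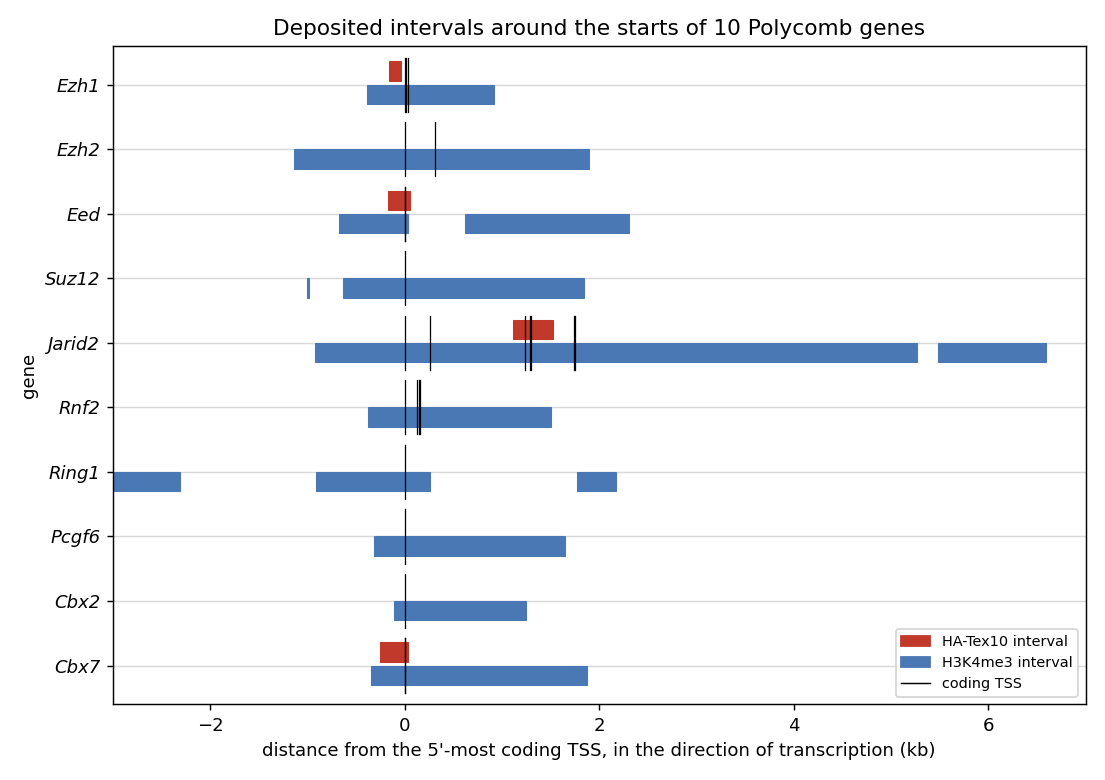
Deposited HA-Tex10 intervals (red) and H3K4me3 intervals (blue) at the 10 genes, one row per gene, against the distance in kb from the gene's 5'-most coding TSS; black lines are coding TSS. H3K4me3 lies over the start in all 10 rows, and HA-Tex10 lies at Ezh1, Eed, Jarid2 and Cbx7, with the Jarid2 interval centred 1.32 kb downstream.

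Among the catalytic subunits of PRC2, Ezh1 and Ezh2 differed in their intervals. Ezh1 encodes the methyltransferase with the weaker activity of the pair, which is used more in non-dividing cells. The gene (ENSMUSG00000006920.14) spans 101191115 to 101226463 on chromosome 11, minus strand. Its HA-Tex10 interval ran from 101226504 to 101226625, was 122 bp wide and ended 41 bp upstream of the nearest TSS, outside the transcribed region. It lay wholly inside an H3K4me3 interval of 1304 bp. This was the narrowest HA-Tex10 interval of the 8, and 17.5% of the whole list was narrower. Ezh2 encodes the main methyltransferase of dividing cells. The gene (ENSMUSG00000029687.16) spans 47530139 to 47595341 on chromosome 6, minus strand, and had 1 H3K4me3 interval of 3041 bp, wider than the widest interval at the TSS of 94.0% of the 13306 genes with H3K4me3 there. No HA-Tex10 interval lay in its body plus 10 kb, and the nearest was 59.1 kb from a TSS. So the gene with the broader H3K4me3 interval of this pair was the one without HA-Tex10.

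The Ezh1 interval is printed 5' to 3' on the strand of the gene to show the bases just upstream of its TSS. It holds 0 matches to the 9 motifs named further below, and so has no capitals.
Ezh1, chr11:101226504-101226625, minus strand: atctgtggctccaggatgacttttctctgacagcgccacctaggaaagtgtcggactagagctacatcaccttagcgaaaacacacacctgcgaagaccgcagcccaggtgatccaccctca

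Eed and Suz12 encode the subunits that form the PRC2 core with either methyltransferase. Eed reads the methyl mark that the complex itself deposits. The gene (ENSMUSG00000030619.9) spans 89954654 to 89980983 on chromosome 7, minus strand. Its HA-Tex10 interval, from 89980926 to 89981154, was 229 bp wide and contained the TSS, with 58 bp in the 5' untranslated part of exon 1 and 171 bp upstream. The start of the noncoding RNA gene E230029C05Rik lay within 1 kb of the same interval, so the interval cannot be assigned to one of these genes. H3K4me3 at Eed was split into an upstream interval of 713 bp and one of 1689 bp that lay wholly in intron sequence, with 580 bp between them. The HA-Tex10 interval shared 208 bp (90.8% of its width) with the upstream one. Suz12, needed for the assembly of PRC2 (ENSMUSG00000017548.15; chromosome 11, plus strand, 79993106 to 80034123), had H3K4me3 of 2484 bp over its single TSS and a further interval of 16 bp, 988 bp upstream. Its nearest HA-Tex10 interval was 288.5 kb away.

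The upstream bases of the Eed interval and the 250 bases before the RefSeq start of Suz12 (GRCm38.p6) are printed to set a start with HA-Tex10 beside one without. Capitals mark motif matches, of which the Suz12 stretch, the longer of the pair, has 5 and the Eed stretch 0.
Eed, chr7:89980984-89981154, minus strand: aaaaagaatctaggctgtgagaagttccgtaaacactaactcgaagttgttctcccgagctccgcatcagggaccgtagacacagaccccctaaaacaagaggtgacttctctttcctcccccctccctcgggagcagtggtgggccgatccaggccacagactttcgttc
Suz12, chr11:79992856-79993105, plus strand: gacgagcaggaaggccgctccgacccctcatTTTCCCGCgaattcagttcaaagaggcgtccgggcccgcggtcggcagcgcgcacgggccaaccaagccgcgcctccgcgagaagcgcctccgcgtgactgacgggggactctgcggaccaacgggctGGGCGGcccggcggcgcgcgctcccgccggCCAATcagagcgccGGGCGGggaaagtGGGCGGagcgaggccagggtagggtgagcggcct
The Suz12 stretch holds 3 GC boxes, 1 CCAAT box and 1 E2F word. This pair does not stand for the genes with and without HA-Tex10. In RefSeq promoters of 300 bases, those with HA-Tex10 had 1 match at Ezh1, 1 at Eed, 2 in each of the promoters of Jarid2 and 4 at Cbx7. Those without it had 2 at Rnf2, 2 at Pcgf6, 3 at Ring1, 5 at Ezh2 and 5 at Suz12, so the counts overlapped.

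Jarid2, an accessory subunit that helps PRC2 to bind chromatin, had the widest H3K4me3 of the 10 genes. The gene (ENSMUSG00000038518.15) spans 44729474 to 44921643 on chromosome 13, plus strand, and its body plus 10 kb spans 212 kb, the longest region of the 10. H3K4me3 covered 6190 bp over its cluster of starts, from 44728617 to 44734806, wider than at 99.8% of genes with H3K4me3 at a TSS. A further 8 H3K4me3 intervals of 48 to 1107 bp followed in the gene body, and 0.732% of coding genes had 9 or more intervals in the body plus 10 kb. The median region of coding genes spans 37.4 kb, and the length of the region searched was not allowed for. The 8 intervals were not spread evenly. Of the 8, 7 had their centre within 26.2 kb of the 5'-most coding TSS, and the centre of the last lay 140 kb from it.

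The first HA-Tex10 interval of Jarid2, from 44730651 to 44731060, was 410 bp wide, and 86.5% of the list was narrower. It contained 3 of the 8 coding TSS, at 44730774, 44730823 and 44730838. Its 410 bp held 161 bp of 5' untranslated exon 1 and 249 bp of intron sequence, by the coding transcripts. With only the 5'-most coding TSS of each gene, Jarid2 no longer counted as having HA-Tex10 at a start, and 3 of 10 genes did, where 8% of all coding genes did.

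The other HA-Tex10 interval of Jarid2 lay deep in an intron, from 44869570 to 44869933, 28.9 kb from the nearest TSS. Its 364 bp coincided with an H3K4me3 interval of 394 bp, with 363 bp shared. More of its length was repeated than in the other 7. Of its 333 words of 32 bases, 54.1% had more than 1 occurrence in the assembled chromosomes, against 0% in 6 of the other intervals and 7.63% in the interval at the Cbx7 gene start. By other measures the Cbx7 interval was the more repetitive of the pair: its most frequent word had 74 occurrences, against 14 in the Jarid2 interval, and 35.8% of its bases were masked as repeats in the reference, against 2.20%. A blastn search found 16 other copies on 13 chromosomes that aligned over at least 200 bases with at least 90% identity (90.97 to 98.5%). HA-Tex10 intervals lay on 7 of these 16 copies and H3K4me3 intervals on 5, and each of those 5 also had HA-Tex10. As background, its letters resemble part of the gene for 28S ribosomal RNA, which cells carry in long repeated arrays; this likeness was not measured here, since no full 28S sequence was used. Whether its reads came from Jarid2, from the other copies or from ribosomal DNA was not tested. Leaving it out could not change the count of 4 of 10 genes with HA-Tex10 in the body plus 10 kb, since Jarid2 keeps its first interval.

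A stretch of the first interval that lies in intron sequence, and the central 300 bases of the intronic interval, are printed to show the contrast. In the first, capitals would mark motif matches, and there are 0. In the second, capitals mark the 282 bases inside words of 32 bases with more than 1 occurrence in the assembled chromosomes.
Jarid2 near its starts, chr13:44730935-44731060, plus strand: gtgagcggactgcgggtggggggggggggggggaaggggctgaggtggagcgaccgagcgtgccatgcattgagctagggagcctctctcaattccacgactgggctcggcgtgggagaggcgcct
Jarid2 deep intron, chr13:44869601-44869900, plus strand: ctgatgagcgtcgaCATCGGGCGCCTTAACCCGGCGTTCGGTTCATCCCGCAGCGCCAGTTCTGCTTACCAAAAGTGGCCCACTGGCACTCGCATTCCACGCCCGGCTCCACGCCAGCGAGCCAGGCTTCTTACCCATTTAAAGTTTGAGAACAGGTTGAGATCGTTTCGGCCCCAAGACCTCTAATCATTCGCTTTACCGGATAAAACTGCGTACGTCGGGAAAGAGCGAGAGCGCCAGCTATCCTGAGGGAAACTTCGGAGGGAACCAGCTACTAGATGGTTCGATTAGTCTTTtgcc

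**Figure D2:**
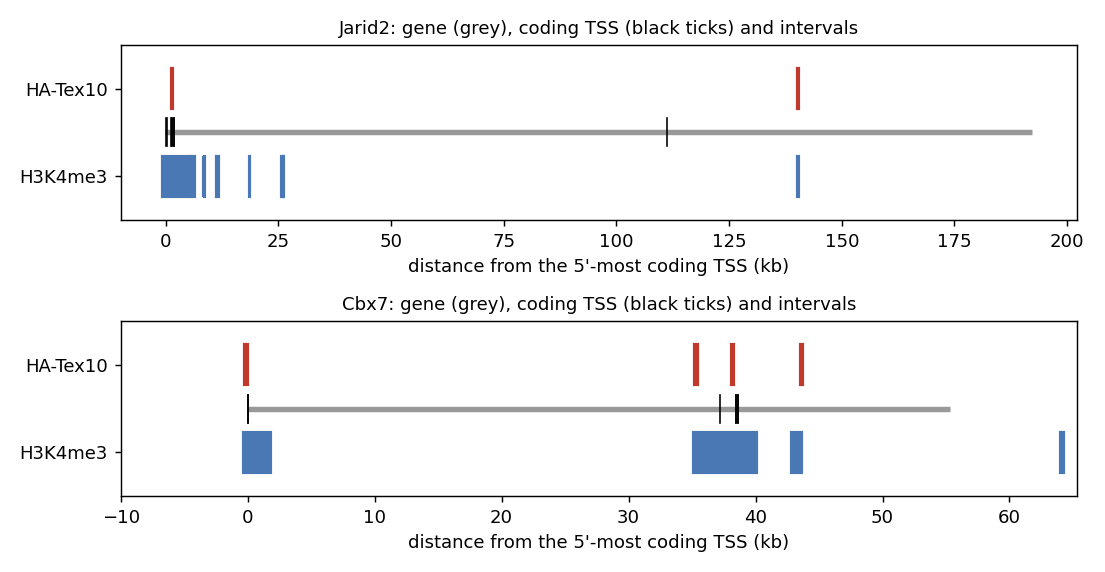
HA-Tex10 (red) and H3K4me3 (blue) intervals along Jarid2 and Cbx7 (grey bars), against the distance in kb from the 5'-most coding TSS, with coding TSS as black ticks; interval edges are drawn with a line that widens the narrowest ones. Jarid2 has HA-Tex10 near its starts and 140 kb into the gene, and Cbx7 has 1 interval at its gene start and 3 around and beyond its internal starts near 38 kb.

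The RING subunits of PRC1 carry its ubiquitin ligase activity, and neither had HA-Tex10 nearby. Rnf2, the main ligase in pluripotent cells (ENSMUSG00000026484.13; chromosome 1, minus strand, 151458004 to 151500955), had 1 H3K4me3 interval of 1890 bp over its start, and its nearest HA-Tex10 interval was 741 kb from a TSS, the farthest of the 10 genes. Ring1, its paralog (ENSMUSG00000024325.8; chromosome 17, minus strand, 34020792 to 34024680), is the shortest of the 10 at 3889 bp, and its nearest HA-Tex10 interval was 45.9 kb away. Ring1 had H3K4me3 of 1175 bp at its TSS, the narrowest of the 10, an interval that also covers the microRNA genes Mir219a-1 and Mir219c and the lincRNA gene Gm26940. Another interval of 403 bp lay inside Ring1, with 183 bp in coding exon 5. The other pair in its region, of 1230 and 2770 bp, lay at the starts of H2-Ke6 and of Slc39a7 and Rxrb. H3K4me3 thus covered 23.3% of the Ring1 region, the highest share of the 10, in a region dense in other promoters.

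Pcgf6, the PCGF subunit of a variant PRC1 (ENSMUSG00000025050.8; chromosome 19, minus strand, 47033617 to 47050906), had 1 H3K4me3 interval of 1962 bp over its single TSS. Its nearest HA-Tex10 interval was 361 kb away. For the 6 genes without HA-Tex10 in their region the nearest interval lay 45.9 to 741 kb from a TSS. The sequencing depth is unknown, so HA-Tex10 was not detected at these genes in the deposited list and is not shown to be absent.

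The CBX subunits bind methylated histone H3 through a chromodomain, and the pair examined had 4 HA-Tex10 intervals at Cbx7 and 0 at Cbx2. Cbx2 (ENSMUSG00000025577.7; chromosome 11, plus strand, 119022962 to 119031270), whose protein compacts nucleosomes, had H3K4me3 of 1351 bp at its single TSS and its nearest HA-Tex10 interval 213 kb away. The other H3K4me3 intervals of its region, of 231 and 481 bp, lay in the body and at the TSS of the neighbouring gene Cbx8. Cbx7 encodes the CBX subunit that prevails in pluripotent stem cells. The gene (ENSMUSG00000053411.16) spans 79915807 to 79971119 on chromosome 15, minus strand, and its 4 HA-Tex10 intervals were as many as those of all the other 9 genes together. Of all coding genes, 0.48% had 4 or more in the body plus 10 kb and 3.64% had 2 or more. The Cbx7 region spans 75.3 kb, against a median of 37.4 kb over coding genes, and this length was not allowed for.

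Cbx7 has 7 coding TSS, of which 2 lie at the gene start and 5 lie 37.2 to 38.6 kb into the gene. Both clusters carried H3K4me3, in an interval of 2224 bp at the gene start and one of 5081 bp, from 79930980 to 79936060, over the internal starts. The internal one was the widest at a TSS of this gene and exceeded 99.4% of genes with H3K4me3. At the gene start, HA-Tex10 covered 293 bp, from 79971086 to 79971378, and contained the TSS. At the internal starts it covered 258 bp, from 79932791 to 79933048, ending 139 bp upstream of the nearest TSS in intron sequence. Another interval of 318 bp, from 79935614 to 79935931, lay 129 bp inside the upstream end of the same H3K4me3 interval, 1715 bp upstream of the nearest TSS. The last, of 214 bp from 79927375 to 79927588, lay in an intron 4928 bp downstream of the nearest TSS, and shared 158 bp (73.8%) with an H3K4me3 interval of 913 bp. The fourth H3K4me3 interval of the region, 272 bp wide, lay at the start of the neighbouring gene Apobec3. Thus the 4 HA-Tex10 intervals fell on 3 separate H3K4me3 intervals.

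The intervals at both clusters of Cbx7 starts are printed, without bases annotated as untranslated exon, to set the alternative starts side by side. Capitals mark CCAAT boxes, the only one of the 9 motifs found in them, with 3 matches at the gene start and 1 at the internal starts.
Cbx7 gene start, chr15:79971120-79971378, minus strand: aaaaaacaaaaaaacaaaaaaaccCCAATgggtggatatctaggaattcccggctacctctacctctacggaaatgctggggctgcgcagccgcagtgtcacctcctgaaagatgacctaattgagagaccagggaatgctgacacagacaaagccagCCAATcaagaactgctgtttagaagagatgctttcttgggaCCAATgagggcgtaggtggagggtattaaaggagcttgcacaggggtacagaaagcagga
Cbx7 internal starts, chr15:79932791-79933048, minus strand: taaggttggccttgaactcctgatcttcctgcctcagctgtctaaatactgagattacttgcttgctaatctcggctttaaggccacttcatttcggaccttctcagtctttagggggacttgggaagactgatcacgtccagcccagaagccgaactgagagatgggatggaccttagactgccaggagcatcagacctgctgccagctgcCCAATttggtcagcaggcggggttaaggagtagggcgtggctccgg

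The width of H3K4me3 at the start varied 5.3-fold among the 10 genes. The median of the widest interval within 1 kb of a TSS was 1926 bp, from 1175 bp at Ring1 to 6190 bp at Jarid2, against 1342 bp for all 13306 genes with H3K4me3 (interquartile range 861 to 1967 bp). Of the 10 genes, 8 lay above the median of all genes and 4 above the upper quartile: Suz12, Ezh2, Cbx7 and Jarid2. The 4 genes with HA-Tex10 had widths from 1304 to 6190 bp (median 3385 bp) and the 6 without had widths from 1175 to 3041 bp (median 1926 bp), so the groups overlapped. Genes with more coding TSS were searched at more places for both antibodies. Of the genes with HA-Tex10, Jarid2 has 8 coding TSS, Cbx7 7, and Ezh1 and Eed 3 each. Of those without it, Rnf2 has 5, Ezh2 4, and Suz12, Ring1, Pcgf6 and Cbx2 1 each. The part of this in the values was not tested. When intervals up to 1 kb apart were merged, the median was 2406 bp, against 1491 bp for all genes, and Eed rose to 2982 bp and Jarid2 to 7512 bp.

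**Figure D3:**
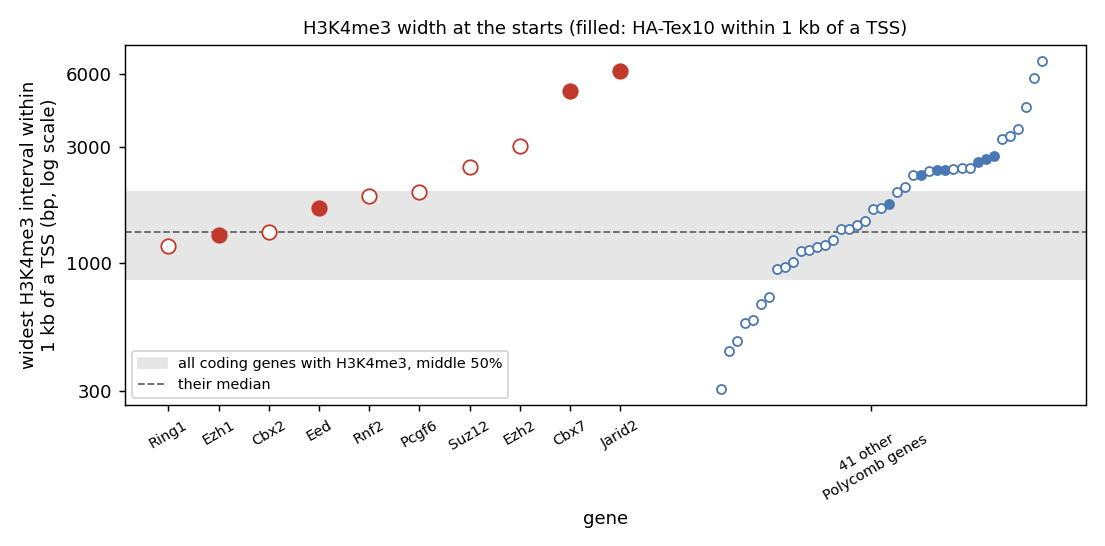
Width in bp, on a log axis, of the widest H3K4me3 interval within 1 kb of a TSS for the 10 genes (red, ordered by width) and 41 other Polycomb genes (blue); filled points have HA-Tex10 within 1 kb of a TSS, and the band and dashed line give the middle 50% and median of all coding genes with H3K4me3. Jarid2 (6190 bp) and Cbx7 (5081 bp) are the widest of the 10, while Ezh1 (1304 bp), also filled, lies just under the median of 1342 bp.

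Other genes of the pathway were read in the same way, from a list of 43 genes, all matched in the annotation. H3K4me3 was within 1 kb of a TSS at 41 of the 43 (95.3%, 84.5 to 98.7%) and HA-Tex10 at 8 (18.6%, 9.74 to 32.6%), beside the same 60.9% and 8.66% of all coding genes. Of coding genes with H3K4me3 at a TSS, 13.9% had HA-Tex10 there. The 43 genes were not limited to those with H3K4me3 at a TSS, so this share is not a like comparison. The difference was not tested. The genes without H3K4me3 there were Phf1 and Ezhip (AU022751 in the annotation). In the PRC2 core list, Rbbp4 had HA-Tex10 over its TSS, in an interval of 367 bp, and Rbbp7 had none; both encode histone-binding subunits. Among 8 genes of PRC2 accessory subunits 3 had it: Mtf2 over its TSS (385 bp), Lcorl 60 bp upstream (84 bp) and Phf1 117 bp upstream (190 bp). Phf1 was the only one of the 8 whose HA-Tex10 interval did not overlap H3K4me3. Among 12 genes of variant PRC1 complexes 4 had it: Mga over its TSS (241 bp), Wdr5 75 bp upstream (127 bp), Fbrsl1 133 bp upstream (423 bp) and Fbrs 772 bp upstream (223 bp). The lists of 5 PCGF genes, 3 CBX genes, 5 PHC and SCM genes and 8 genes of the H2A deubiquitinase complex had 0 genes with HA-Tex10 at a TSS. In the body plus 10 kb, 13 of the 43 genes had HA-Tex10 (30.2%, 18.6 to 45.1%), where 16.9% of all coding genes did. These included 1 gene each of the CBX, the PHC and SCM, and the deubiquitinase lists, and 0 PCGF genes. With the 10 genes above, 12 of 53 Polycomb genes had HA-Tex10 at a TSS (22.6%, 13.5 to 35.5%). The 53 genes were likewise not limited to those with H3K4me3 at a TSS, and their share was not tested against 8.66% or 13.9%.

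**Figure D4:**
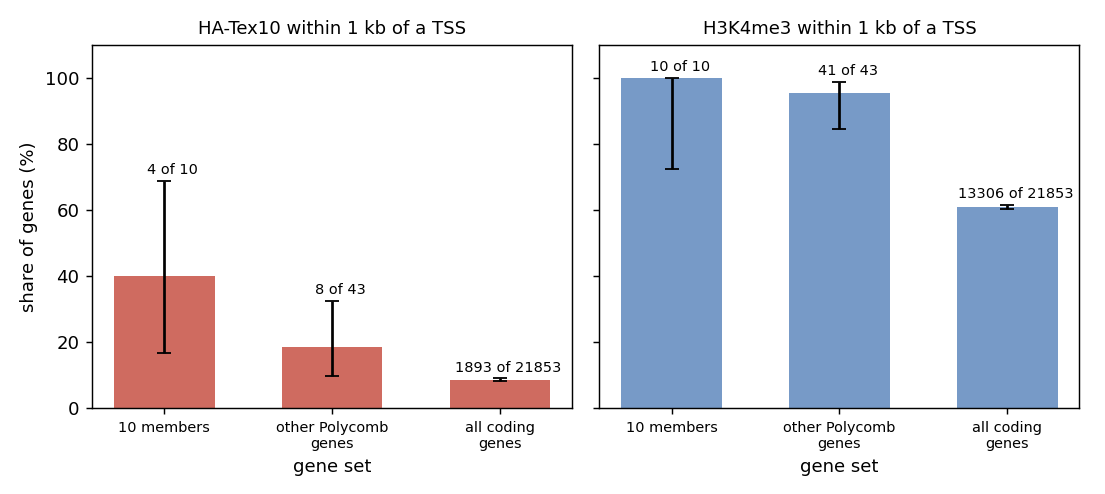
Share of genes (%) with an HA-Tex10 interval (left) or an H3K4me3 interval (right) within 1 kb of a TSS among the 10 members, 43 other Polycomb genes and all 21853 coding genes; bars are shares, lines are 95% Wilson intervals for counting error only. HA-Tex10 was at 4 of 10, 8 of 43 and 1893 of 21853 genes, and the difference between the sets was not tested. The share of coding genes with H3K4me3 at a TSS that had HA-Tex10, 13.9%, is not drawn.

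The starts of these genes were rich in GC. RefSeq promoters of 300 bases (250 before to 50 after the start, GRCm38.p6) were matched for 9 of the 10 genes, all but Cbx2, and Jarid2 has an additional one, giving 10 promoters. Their median GC content was 64.3%, against 57% over 20143 promoters of coding genes, and their median ratio of observed to expected CpG was 0.892 against 0.588. All 10 genes had H3K4me3 at a TSS, against 60.9% of all coding genes. Promoters with H3K4me3 were not read separately, so these differences are not shown to be particular to Polycomb genes. The promoters of the genes with HA-Tex10 ranged from 54.7% GC at Eed to 67.3% at Cbx7, and those of the genes without it from 57.7% at Pcgf6 to 74% at Ring1, so these ranges overlapped. The single RefSeq promoter of Cbx7 is that of the internal starts, where 106 of its 300 bases lay under HA-Tex10. At Ezh1 the number was 122, at Eed 228, and at Jarid2 it was 173 and 40. The HA-Tex10 intervals themselves had a median GC content of 53.8% (49.1 to 64.6%), against 59.0% over the 4238 HA-Tex10 intervals on the assembled chromosomes. The 4 intervals of Cbx7 had the lowest values, 49.1 to 53.5%, and the other 4 had 54.1 to 64.6%.

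Short consensus words of 9 motifs were searched on both strands of the promoters, with overlaps between motifs allowed. The shares of coding promoters given beside them cover promoters with and without H3K4me3, and differences in GC content were not allowed for. The GC box, spelled GGGCGG, was in 7 of the 10 promoters, where 47.7% of coding promoters held one. The CCAAT box, of those 5 letters, was in 6, where 37.8% did. The word for NRF1, a factor of housekeeping promoters, was in 4, those of Ezh1, Ezh2, Pcgf6 and Cbx7, where 6.6% of coding promoters held it. The E2F words TTTCCCGC or TTTGGCGC, sites of cell cycle factors, were in the promoters of Ezh2 and Suz12, where 2.09% of coding promoters held one. None of the 10 promoters held the E-box CACGTG (8.03% of coding promoters), on which the variant PRC1 with Pcgf6 is known to bind. The same was true of the ETS word CCGGAAG (11.9%), the YY1 word AAGATGG (6.29%), the CREB word TGACGTCA (2.31%) and the octamer ATGCAAAT (1.55%).

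In windows of 200 bp on the centres of the 8 HA-Tex10 intervals, the GC box was in 0, where 32.2% of all such windows held it. The CCAAT box was in 3, where 22.8% did, and the NRF1 word in 1, where 4.25% did. None of the 8 intervals themselves held the NRF1 word, so that match lay outside the interval. Of the 8 windows 4 belong to Cbx7, so they do not stand for 8 genes. A match describes the letters of the window only, and binding of these factors was not measured.

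The labelled cell type could be checked only through H3K4me3 at promoters. Of 10 germ cell and pluripotency genes 8 had H3K4me3 within 1 kb of a TSS, all but Dppa3 and Nanos3. Of the 12 mesoderm, endoderm and neural genes 11 had it too, so the mark does not separate these cell types. It was at 0 of 4 blood and liver genes, and another blood gene, Hbb-b1, was not matched in the annotation. Of all coding genes 60.9% had it.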

How the data were processed

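The data are 3 deposited interval lists, which hold interval coordinates in bp and no score. Per the submitters' processing notes, the tools were Bowtie2 2.3.4.3, SAMtools 1.9, MACS2 2.1.2 and HOMER, and the build was mm10; the threshold, the use of input and the way replicates were combined are not given in the sources used here. The HA-Tex10 list held 4331 intervals (median 234 bp) and the H3K4me3 list 29072 (median 710.5 bp). The third list equals the HA-Tex10 intervals that meet H3K4me3 (2990 intervals). An interval over a promoter carries no height, so a strong and a weak site count alike. Some intervals are very narrow, such as the one of 16 bp at Suz12. How far widths, gaps and counts of intervals depend on the way the lists were made was not tested.

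Genes and coding TSS came from GENCODE M21 on 21 chromosomes, and 0 intervals ended past a chromosome end. Gaps of at most 1 kb to a TSS counted as present, and an overlap needed 1 bp. Sequences came from RefSeq GRCm38.p6. Python 3.11.15 with scipy 1.17.1 and blastn 2.17.0 were used. As a check of the code only, simulated intervals were planted within 1 kb of a TSS of 200 genes among 21853. All 200 were recovered, which the search rule requires, so this is not a rate of detection. All 10 genes are named, and of the other Polycomb genes those with HA-Tex10 or without H3K4me3 at a TSS. The genes and lists were chosen with earlier results of these data known. With 1 list per antibody, no test was run.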

Additional observations from a re-analysis of the deposited data

How the results depend on the processing

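No paired analysis was possible because the intervals of both replicates of an antibody come as 1 list, and no replicate could be left out. Alternative settings gave 35 counts and medians, some of which could not move freely. Wider windows cannot lower a count, and the third list keeps every HA-Tex10 interval that overlaps H3K4me3. Of the 35, 32 stayed within 1.5 times the reported value. The 3 that did not came from keeping only intervals at least as wide as the median of their list, which shortens both lists by its construction. HA-Tex10 was then within 1 kb of a TSS at 2 of the 10 genes (Jarid2 and Cbx7, beside 4.64% of coding genes) and at 4 of the 43 other Polycomb genes, and in the body plus 10 kb of 2 of the 10 genes (beside 9.25%). Ezh1 and Eed lost their interval there, since 122 and 229 bp are under the median of 234 bp. Windows of 2.5 and 5 kb left the count at 4 of 10 (beside 9.51% and 10.6% of coding genes). Both raised the count of the other Polycomb genes from 8 to 10 of 43. Leaving out the repeated Jarid2 interval was chosen after seeing the data. It could not change a count of genes, since Jarid2 keeps its interval near its starts, yet its counts are among the 32.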
